A study of Mus musculus with 20 samples.

Results

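The 10 genes described here are the estrogen receptors *Esr1*, *Esr2* and *Gper1*, the progesterone receptor *Pgr*, the estrogen-related receptors *Esrra*, *Esrrb* and *Esrrg*, and the coregulators *Ncoa1*, *Nrip1* and *Sra1*. They were taken by name from the 25655 genes listed in the deposited count tables of the mouse utricle, of which 15803 had a count in at least 1 library. Of the 10 genes, 9 had a count in at least 1 library, and only *Esrrb* had one in each of the 20 libraries. RNA of *Esr1*, *Esr2*, *Gper1* and *Pgr* reached 3 counts in 3 to 7 of the 20 libraries each. None of the 8 or 9 genes that could be tested passed the test between groups in any of 4 comparisons. Of all genes tested 0.0145% to 0.0727% passed, so that 0 is near these shares.

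Estradiol acts in cells through *Esr1* and *Esr2*, nuclear receptors that leave their chaperones on binding the hormone, pair up, and bind DNA at estrogen response elements, where they recruit coactivators or corepressors. *Gper1* encodes a membrane receptor coupled to G proteins, and *Pgr*, itself a steroid receptor, is a classical estrogen-induced gene of the uterus. The estrogen-related receptors share much of the DNA-binding domain but do not bind estradiol, and *Esrrb* is known in the inner ear for its role in the epithelial cells that secrete endolymph.

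The utricle is the otolith organ of the inner ear that senses horizontal linear acceleration. Female C57BL/6J mice were operated at 8 weeks of age, received a subcutaneous pellet made to release for 60 days, and gave their utricles 4 weeks after surgery. The sham + v group kept its ovaries and had a vehicle pellet, and the other 3 groups were ovariectomized (OVX) and had a vehicle pellet (OVX + v), 50 µg of estradiol (OVX + E2) or 2.4 mg of raloxifene (OVX + RAL), a selective estrogen receptor modulator. Each group had 5 libraries, numbered 1 to 5, 6 to 10, 11 to 15 and 16 to 20 in that order, and each was made from 1 ng of total RNA by priming at the poly(A) tail. All 20 libraries thus came from young adult females of 1 inbred strain, and no untreated group without a pellet was included.

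The libraries held 1507719 to 2053255 counts in the sham + v group, 1435156 to 2019032 in OVX + v, 1123053 to 1507667 in OVX + E2 and 1702313 to 2081747 in OVX + RAL. The OVX + E2 libraries also tended to list fewer genes with a count, 7427 to 9680, beside 8651 to 10694 in the other groups, and these ranges overlapped. Levels are given as CPM (counts scaled to the total count of the library). No correction for gene length was made, because reads of this library type start near the poly(A) end whatever the length of the transcript. Counts are of reads and not of molecules, as there were no molecular identifiers. Reads copied from the same molecule could thus not be told apart. A gene was taken as detected in a library from 3 counts, which equals 1.44 to 2.67 CPM depending on depth. Of the 11 hair cell markers listed, all had a count, and the 8 supporting cell and otoconial markers summed to 3378 to 6317 CPM. Skeletal muscle markers summed to 0 to 313.8 CPM and mucosal secretory markers to 0 to 1738 CPM. In whole tissue, fewer cells of a type and less RNA per cell cannot be told apart.

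The 6 nuclear receptors of the set can be told from each other in a short stretch of the first zinc finger of the DNA-binding domain. There, 3 residues of the recognition helix take part in the choice of DNA element. The stretch is shown because it holds residues at which the estrogen receptors, the estrogen-related receptors and *Pgr* differ. The 24 coding bases below are from the GRCm39 genome, in the sense of the gene, with the codons of those 3 residues in capitals.
Esr1: tgcGAAGGCtgcaagGCTttcttt
Esr2: tgtGAAGGAtgtaagGCCtttttt
Esrra: tgtGAGGCCtgcaaaGCCttcttc
Esrrb: tgcGAGGCTtgcaagGCGttcttc
Esrrg: tgtGAAGCCtgcaagGCAttcttc
Pgr: tgtGGGAGCtgcaagGTCttcttt
They lie at chr10:4696768-4696791 on the forward strand in exon 3 of 9 (*Esr1*), chr12:76212239-76212262 on the reverse strand in exon 3 of 9 (*Esr2*), chr19:6897447-6897470 on the reverse strand in exon 2 of 7 (*Esrra*), chr12:86517290-86517313 on the forward strand in exon 2 of 7 (*Esrrb*), chr1:187775907-187775930 on the forward strand in exon 2 of 7 (*Esrrg*) and chr9:8903709-8903732 on the forward strand in exon 2 of 8 (*Pgr*). *Esr1* and *Esr2* encode glutamate, glycine and alanine at the 3 capitalized codons. The 3 estrogen-related receptors encode glutamate, alanine and alanine, and *Pgr* encodes glycine, serine and valine. Among the 3 estrogen-related receptors the stretches differed at 3 to 4 of the 24 bases, between them and *Esr1* at 4 to 6 bases, and between them and *Esr2* at 6 to 8 bases. *Pgr* differed from *Esr1* at 6 bases, from *Esr2* at 7 and from the estrogen-related receptors at 6 to 8, so that over the whole stretch *Esrrb* was as far from *Esr2* as from *Pgr*. *Gper1*, *Ncoa1*, *Nrip1* and the other coregulator have no such domain.

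The reads, in contrast, came from the 3′ ends of the transcripts. The last 400 bases of each gene's transcript in a later GENCODE annotation (vM39) were cut into 338 windows of 63 bases. For each of the 10 genes, 0 of these occurred in the sense direction in a transcript of another gene. For *Gper1* that annotation ends 591 bases beyond the gene as counted, so its windows may lie outside the counted gene. The opposite strand was not searched, and overlaps with genes on it are given with the genes concerned. Promoters of 9 of the genes, 15 windows of 300 bases, were matched in the RefSeq table of the build GRCm38.p6. On both strands, 0 of the 15 held the palindromic estrogen response element GGTCANNNTGACC (0.07% of all 32851 promoters), 0 the single core motif AGGTCA (16.3%) and 0 the extended motif TCAAGGTCA of the estrogen-related receptors (0.423%). The extended motif contains the core motif, and these shares describe only the letters of the windows.

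Averaged over the 20 libraries, *Esrrb* stood highest of the set with 93.2 ± 66.3 CPM (SD, n = 20), above 88.1% of all genes with a count. It was followed by *Ncoa1* with 42.1 ± 38.2 CPM, *Nrip1* with 28.6 ± 27.1 CPM, *Sra1* with 28.1 ± 32.9 CPM and *Esrra* with 18.6 ± 21.9 CPM. *Esr1* averaged 7.12 ± 16.4 CPM, *Pgr* 5.85 ± 11.4 CPM, *Gper1* 5.04 ± 12.5 CPM and *Esr2* 3.89 ± 15.9 CPM, and *Esrrg* was at 0 throughout. The ranges of neighbours in this order overlapped in every case. Together the 10 genes made up 213 ± 62.6 CPM in sham + v, 271 ± 114 CPM in OVX + v, 245 ± 150 CPM in OVX + E2 and 200 ± 100 CPM in OVX + RAL (SD, n = 5 each). Library 12 of the OVX + E2 group had the smallest sum, 37.0 CPM.

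**Figure D1:**
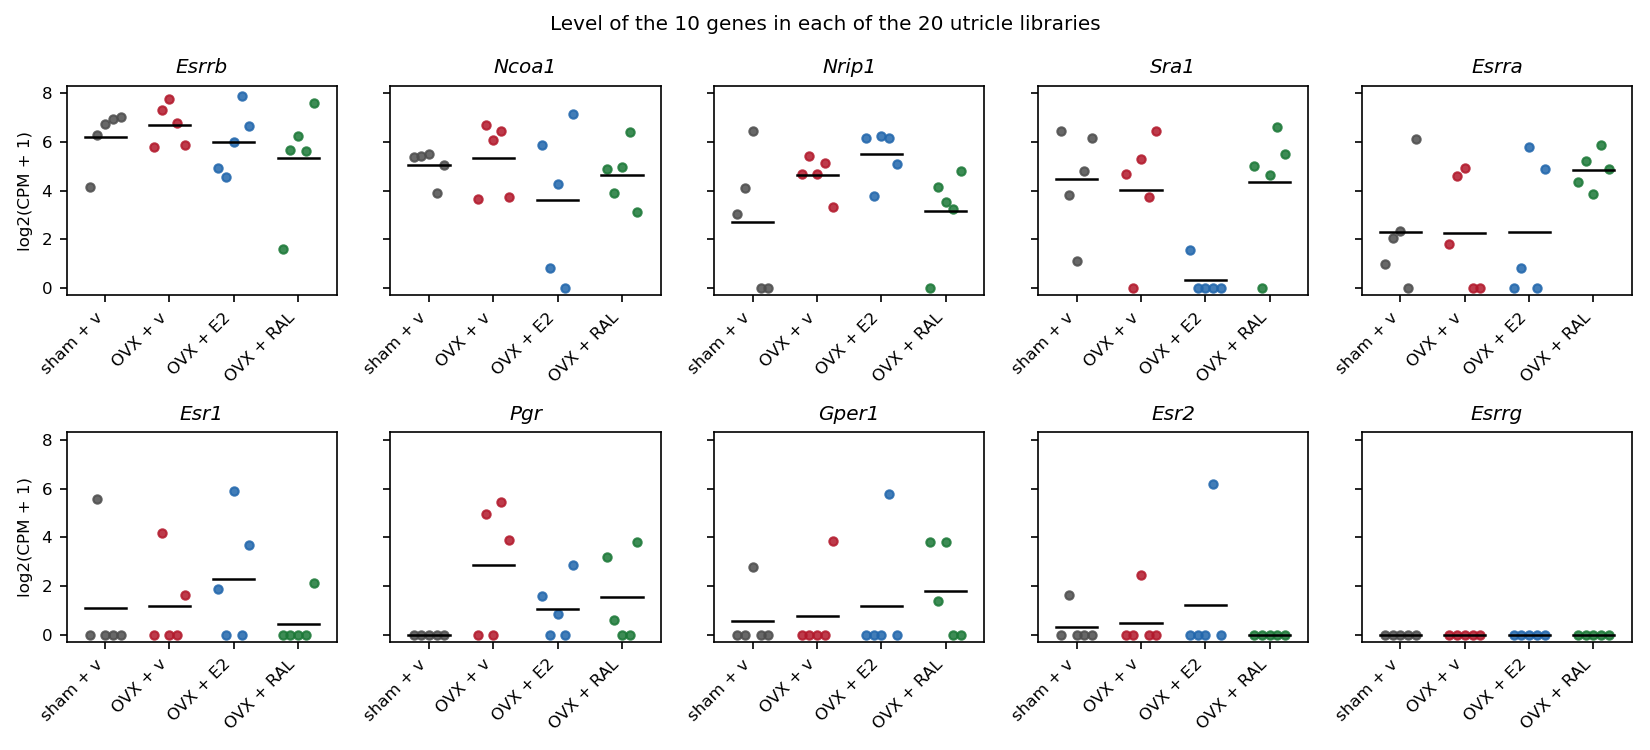
Level of each of the 10 genes, on the vertical axis as log2(CPM + 1), in the 20 libraries, with 1 point per library, ordered by library number within the 4 groups, and a bar at the group mean of the plotted values. *Esrrb* lies above 0 in every library, *Sra1* lies at or near 0 in all 5 OVX + E2 libraries, and *Esr1*, *Pgr*, *Gper1* and *Esr2* lie at 0 in most libraries.

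*Esr1*, which encodes estrogen receptor alpha (chr10:4561593-4955614, forward strand), was detected in 7 of the 20 libraries. In the sham + v group, library 2 held 88 counts, or 46.2 CPM, and the other 4 held 0. In OVX + v, library 7 held 27 counts (16.9 CPM) and library 10 held 3 (2.09 CPM). In OVX + E2, library 11 held 4 counts (2.65 CPM), library 13 held 74 (59.3 CPM) and library 15 held 17 (11.9 CPM), and in OVX + RAL library 20 alone held any, 7 counts or 3.36 CPM. Detection was thus in 1, 2, 3 and 1 of 5 libraries, and 1 library carried most of the counts of each group.

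*Esr2*, encoding estrogen receptor beta (chr12:76167193-76224033, reverse strand), was the least often detected of the genes that had any count. It had 4 counts in library 2 of sham + v (2.1 CPM), 8 in library 8 of OVX + v (4.53 CPM), 80 in library 14 of OVX + E2 (71.2 CPM) and 0 in all OVX + RAL libraries. Library 14 therefore carried 80 of the 92 counts of the gene.

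*Gper1* (chr5:139408906-139413555, forward strand) was detected in 6 libraries. It had 10 counts in library 3 of sham + v (5.93 CPM), 19 in library 10 of OVX + v (13.2 CPM) and 61 in library 14 of OVX + E2 (54.3 CPM). In OVX + RAL it had 25, 3 and 22 counts in libraries 16, 17 and 18 (12.9, 1.62 and 12.9 CPM), the only group with more than 1 library above 0. The gene lies within *3110082I17Rik*, which is on the opposite strand and had 317 counts. The 2 genes were not always found together, as 3 libraries had counts of *Gper1* and none of its neighbour. The gene's 3′ end in the files lies 591 bases short of the end in a later GENCODE annotation (vM39), and the part of this in its counts was not tested.

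An RNA of at least 1 of these 3 estrogen receptors was detected in 13 of the 20 libraries, and at most 2 of the 3 in the same library. *Esr1* or *Esr2*, the nuclear receptors for estradiol, was detected in 1, 3, 4 and 1 libraries, in the order sham + v, OVX + v, then estradiol and raloxifene. Such on-and-off values were the rule for genes of this abundance. Of the 80 values of *Esr1*, *Esr2*, *Gper1* and *Pgr*, 68.8% were 0 and 18.8% were 10 counts or more, with 10% between 3 and 9. Over all 1785 genes with the same total of 92 to 220 counts, 70.7% of the values were 0 and 19.6% were 10 counts or more, with 4.83% between 3 and 9.

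*Pgr* (chr9:8899834-8968612, forward strand) was at 0 in all 5 sham + v libraries. In OVX + v, libraries 7, 9 and 10 held 48, 85 and 20 counts (30.1, 42.1 and 13.9 CPM), and libraries 6 and 8 held 0. In OVX + E2, libraries 11, 13 and 15 held 3, 1 and 9 counts (1.99, 0.802 and 6.31 CPM), and in OVX + RAL libraries 16, 17 and 20 held 16, 1 and 27 counts (8.23, 0.539 and 13 CPM). The 3 highest libraries by CPM were thus all from ovariectomized mice without hormone, while 2 libraries of that group had no count.

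**Figure D2:**
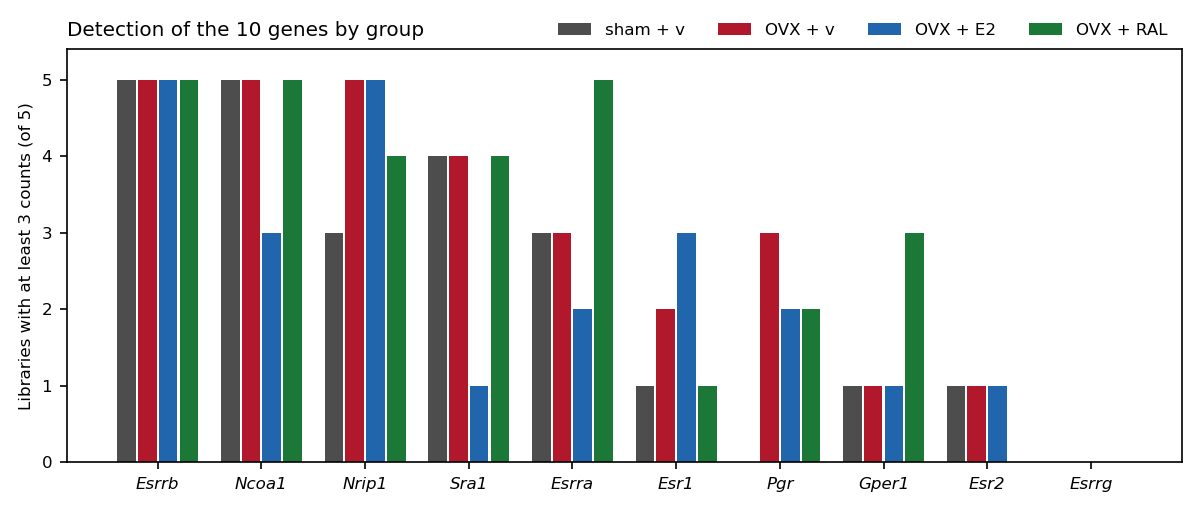
Number of libraries, of 5 per group, in which each gene had at least 3 counts, as 1 bar for each of the 4 groups. *Esrrb* was detected in 5 of 5 libraries of every group, *Sra1* in 1 OVX + E2 library and in 4 libraries of each other group, *Esrra* in all 5 OVX + RAL libraries, and *Esrrg* in none.

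Of the estrogen-related receptors, *Esrrb* (chr12:86407891-86568402, forward strand) had the highest mean level, although *Esrra* was above it in libraries 16 and 19 of OVX + RAL. In sham + v the 5 libraries had 16.6, 76.1, 105, 122 and 129 CPM, and in OVX + v 54.2, 157, 219, 108 and 57.8 CPM. In OVX + E2 they had 29.8, 22.7, 63.3, 233 and 99.6 CPM, and in OVX + RAL 2.06, 50.1, 75.2, 48.3 and 194 CPM. The groups overlapped widely, and the lowest library, number 16 with 4 counts, shared its group with number 20, which had 403. Its coefficient of variation over the 20 libraries was 71.2%, where the 1028 genes of like mean count had a median of 56.6% and quartiles of 49.6% and 64.6%. The 8 dark cell markers, genes of the endolymph-secreting cells of the vestibular organ, summed to 1702 to 3862 CPM over the 20 libraries. Among 2233 genes with at least 10 counts in every library, those whose CPM followed that of *Esrrb* most closely were *Efhd2* (Spearman's rho 0.68), *Rps26* (0.67) and *Azin1* (0.66), over 20 libraries in which all genes share the depth of the library. The 99th percentile of rho over these 2233 genes was 0.571.

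*Esrra* (chr19:6888345-6899208, reverse strand), a regulator of mitochondrial energy metabolism, was detected in 13 libraries. It had 0.974, 3.15, 4.15, 0 and 69.6 CPM in sham + v, 2.49, 23.2, 29.5, 0 and 0 CPM in OVX + v, and 0, 0.755, 54.5, 0 and 28.8 CPM in OVX + E2. In OVX + RAL it had 19.5, 36.1, 13.5, 57.2 and 28.3 CPM, the only group in which every library had a count. Its 3′ end overlaps that of *Trmt112* on the opposite strand by 73 bases. *Trmt112* had 145 to 761 counts in each library, and 209 to 600 in the 5 libraries where *Esrra* was at 0. *Esrrg* (chr1:187340988-187947082, forward strand) had 0 counts of 33478857 in the 20 libraries together. By counting error alone this allows a level of up to 0.0896 CPM, and of up to 0.453 CPM in the shallowest group, OVX + E2. *Gm37929* on the opposite strand overlaps *Esrrg* by 493 bases and *Gm38315* on the same strand by 2437 bases. Both also had 0 counts.

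Of the coregulators, *Ncoa1* (chr12:4297362-4527182, reverse strand), a histone acetyltransferase-type coactivator of steroid receptors, was detected in 18 libraries. It had 40.9, 41.5, 44.4, 14 and 32.5 CPM in sham + v, 11.8, 104, 67.5, 86.7 and 12.5 CPM in OVX + v, 58.4, 0.755, 18.4, 0 and 142 CPM in OVX + E2 and 28.8, 14, 30.0, 85 and 7.69 CPM in OVX + RAL. The sham + v libraries lay closest together, and the OVX + E2 libraries held both the lowest and the highest value. *Nrip1* (chr16:76084288-76170715, reverse strand), a corepressor that binds hormone-occupied receptors and is itself induced by estradiol in breast cancer cells, was detected in 17 libraries. It had 7.31, 16.3, 87.1, 0 and 0 CPM in sham + v, 24.9, 42.0, 24.4, 34.7 and 9.06 CPM in OVX + v, 71.6, 12.8, 74.5, 70.3 and 33.0 CPM in OVX + E2 and 0, 16.7, 10.6, 8.39 and 27.4 CPM in OVX + RAL. In 4 of the 5 OVX + E2 libraries it was above every OVX + RAL library.

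*Sra1*, the steroid receptor RNA activator, acts as a noncoding RNA and also encodes a protein. It lies on chromosome 18 from 36799734 to 36803868, on the reverse strand. It had 179, 25, 2, 49 and 108 counts in sham + v, 40, 0, 67, 25 and 125 in OVX + v, 3, 0, 0, 0 and 0 in OVX + E2 and 61, 0, 41, 184 and 93 in OVX + RAL. The OVX + E2 group thus held 3 counts in all, and each other group held 4 libraries with at least 25 counts and 1 library with at most 2. As CPM, the group means were 40.1 ± 37.5, 32.5 ± 33.7, 0.398 ± 0.89 and 39.3 ± 35.9 (SD, n = 5 each). Because 1 library of OVX + v and 1 of OVX + RAL were also at 0, the OVX + E2 libraries overlapped both groups. The coefficient of variation of *Sra1* over all libraries was 117%, beside a median of 96.0% for the 1752 genes of like mean count.

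**Figure D3:**
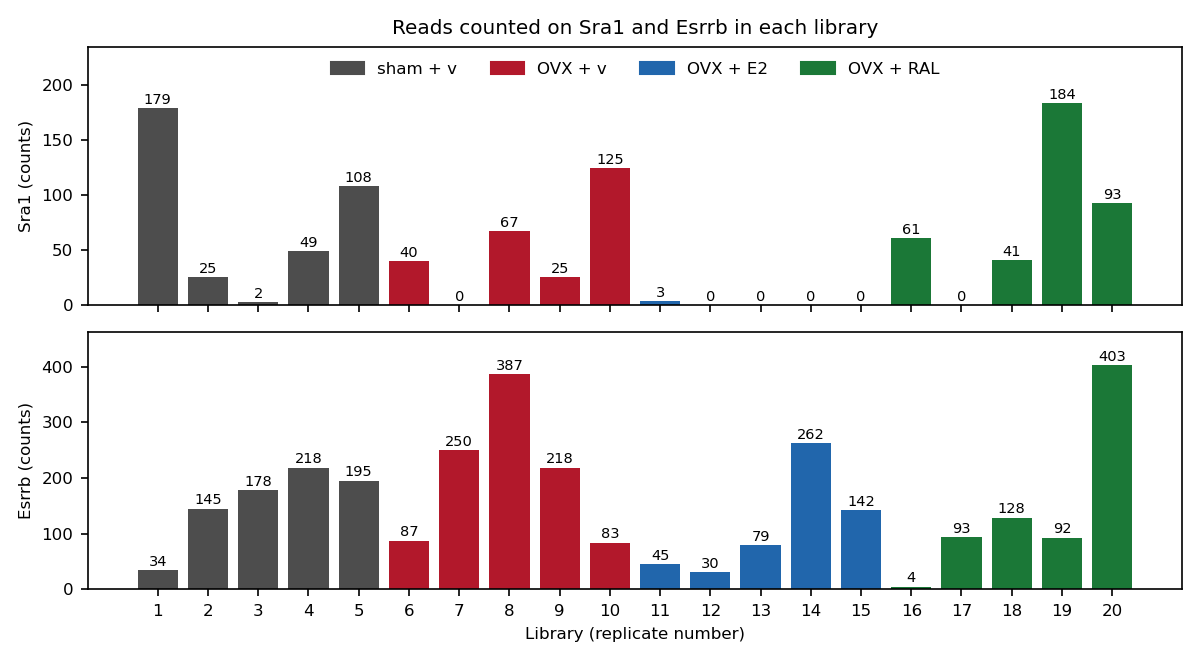
Reads counted on *Sra1* (upper panel) and *Esrrb* (lower panel) in libraries 1 to 20, with the vertical axes in counts starting at 0 and bars coloured by group. *Sra1* has 3, 0, 0, 0 and 0 counts in the OVX + E2 libraries 11 to 15, in which *Esrrb* has 30 to 262 counts.

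The first comparison, sham + v against OVX + v, asks what the loss of the ovaries changed. None of the 9 genes that could be tested passed the test (adjusted p under 0.05 in edgeR's quasi-likelihood test), where 0.0145% of all 13825 genes tested did, 2 genes. *Pgr* had the smallest p, with 0 counts in sham + v and 17.2 ± 18.6 CPM in OVX + v. Against the level that 3 counts per library would give, it was at least 10.2-fold lower in sham + v, with an edgeR adjusted p of 0.363 and an exact permutation p of 0.167 (two-sided). Without library 9 of OVX + v this bound was 6.49-fold. Over the 4 comparisons limma called 0 of the 35 values of these genes and DESeq2 called 0 of the 29 for which it gave an adjusted p. In the order in which the comparisons are described here, limma called 0.0289%, 0.0803%, 0.0357% and 0.0727% of all genes, and DESeq2 0.115%, 0.391%, 0.0318% and 0.369%, so that 0 is near these shares. The fold change of *Esrrb* was -0.41 on the log2 scale, with a 95% confidence interval of -1.45 to 0.63. That of *Ncoa1* was -0.71 (-2.55 to 1.14), that of *Nrip1* -0.29 (-3.09 to 2.52) and that of *Sra1* 0.31 (-1.85 to 2.46). For *Esr1* the value was 1.27, with an interval of -3.94 to 6.47, and without library 2 of sham + v it was -5.73. An unadjusted p under 0.05 was reached by 1 of the 9 genes, and by 12.5% of all genes tested.

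The second comparison, OVX + E2 against OVX + v, asks what estradiol changed in ovariectomized mice. Again 0 of 9 genes passed, where 0.0584% of 13695 genes did, 8 genes. *Sra1* had a log2 fold change of -6.04 (SE 2.52), with a 95% confidence interval of -10.99 to -1.09 and an edgeR adjusted p of 0.351, and was the only one of the 9 with an unadjusted p under 0.05, which 13.9% of all genes tested reached. Without library 10 of OVX + v the fold change was -5.27 and its unadjusted edgeR p was 0.0952, and without library 11 of OVX + E2 the fold change was -8.61. In pooled counts the OVX + v group had 67.5 times the rate of the OVX + E2 group, with an exact interval of 22.8 to 329 that covers counting error only. This ratio rests on the 3 counts of library 11, the only ones in OVX + E2, and was 41.8 without library 10 of OVX + v. The exact permutation test of log2(CPM + 1) gave a two-sided p of 0.0476, and 0.0952 after adjustment over the 4 comparisons of this gene, where the smallest p these groups allow is 0.00794. Among the alternative analyses the adjusted p of *Sra1* was lowest with DESeq2, at 0.113. *Sra1* was known to be low in this group from earlier results of these data, so its p is a description.

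The pattern of *Sra1* was shared by other genes. No OVX + E2 library above 3 counts, together with at least 4 OVX + v libraries above it, was found for 0.862% of the genes tested, 118 genes including *Sra1* and no other of the 10. The reverse pattern was found for 2 genes. With a limit of 2.67 CPM in place of 3 counts the numbers were 112 and 2. These limits were chosen after the values were seen. As a group, the OVX + E2 libraries had the lowest median depth and the lowest range of genes listed, with overlap with other groups. The part of this in the level of *Sra1* was not tested. The other genes of the set had wide intervals in this comparison. *Esrrb* gave -0.41 (-1.69 to 0.86), *Ncoa1* -0.36 (-2.47 to 1.75), *Nrip1* 0.96 (-1.52 to 3.43) and *Esrra* 0.60 (-3.67 to 4.88) as log2 fold changes with 95% confidence intervals. *Pgr* averaged 1.82 ± 2.64 CPM with estradiol and 17.2 ± 18.6 CPM with vehicle, an edgeR log2 fold change of -3.18 (-8.43 to 2.07) with an adjusted p of 0.937. Without library 15 of OVX + E2 the value of *Pgr* was -4.45 and that of *Ncoa1* -1.54, and without library 14 that of *Esrrb* was -1.15. *Esr1* gave 1.94 (-3.11 to 6.98), which became -0.06 without library 13, and *Gper1* gave 2.01, which became -5.07 without library 14.

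The third comparison, OVX + RAL against OVX + v, asks the same of raloxifene. Of the 8 genes tested, 0 passed, where 0.0286% of 14002 genes did, 4 genes, and 0 had an unadjusted p under 0.05. *Esrra* was counted in all 5 OVX + RAL libraries and in 3 of 5 OVX + v libraries, with means of 30.9 ± 17 and 11 ± 14.2 CPM. Its log2 fold change was 1.48 (SE 1.42), with a 95% confidence interval of -1.32 to 4.29, and the exact permutation p was 0.0794, or 0.254 adjusted over its comparisons. Without library 8 of OVX + v the fold change was 2.26. Of the cell type lists, the skeletal muscle, mucosal secretory, melanocyte, macrophage, bone and blood markers were also highest on average in OVX + RAL. The 6 skeletal muscle markers, of which *Actn3* was at 0 throughout, summed to 0.48 to 313.8 CPM in OVX + RAL and to 0 to 137.7 CPM in OVX + v. The 5 mucosal secretory markers, of which *Scgb1a1* and *Muc5b* were at 0, summed to 37.47 to 1738 and to 0 to 743.9 CPM. The melanocyte markers, 6 of 6 with a count, summed to 757.6 to 1645 and to 530.0 to 1425 CPM, the macrophage markers, 6 of 6, to 108.1 to 259.1 and to 76.0 to 162.5 CPM, and the bone markers, 6 of 6, to 83.1 to 308.6 and to 1.134 to 259.5 CPM. The blood markers, 5 of 5, summed to 825.1 to 2909 and to 830.0 to 2459 CPM. The ranges of both groups overlapped for each list, and the part of these cells in the level of *Esrra* was not tested. *Esrrb* had a mean of 73.8 ± 72.0 CPM with raloxifene and 119 ± 69.9 CPM with vehicle, a log2 fold change of -0.69 with an interval of -1.71 to 0.33 and an edgeR adjusted p of 0.933. Without library 20 of OVX + RAL the fold change was -1.44. *Sra1* gave 0.28 (-1.66 to 2.21), *Ncoa1* -0.77 (-2.41 to 0.86) and *Nrip1* -1.09 (-3.96 to 1.77), and without library 19 of OVX + RAL *Ncoa1* gave -1.49.

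The last comparison set the 2 ligands beside each other, OVX + E2 against OVX + RAL, at pellet doses that differ. Estradiol is the steroid hormone, and raloxifene is a nonsteroidal benzothiophene. None of 9 genes passed, where 0.0727% of 13753 genes did, 10 genes, and *Sra1* and *Esr2* had an unadjusted p under 0.05, as did 14.1% of all genes tested. *Sra1* had a log2 fold change of -6.32 (SE 2.33, 95% confidence interval -10.89 to -1.76), an edgeR adjusted p of 0.353 and an exact permutation p of 0.0476, 0.0952 adjusted. The pooled rate was 88.2 times higher with raloxifene, with an exact interval of 30.0 to 430 for counting error, and 56.8 times without library 19 of OVX + RAL. Without that library the log2 fold change was -5.69 with an unadjusted edgeR p of 0.0582, and without library 11 of OVX + E2 it was -9.00. DESeq2 gave the lowest adjusted p of any setting, 0.0628. Low in OVX + E2 and present in at least 4 OVX + RAL libraries by the same count limits were 0.953% of the genes tested, 131 genes, with *Sra1* again the only one of the 10, and 8 genes had the reverse pattern. With the limit of 2.67 CPM these were 111 and 8.

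In the same comparison *Nrip1* averaged 52.5 ± 28.0 CPM with estradiol and 12.6 ± 10.2 CPM with raloxifene. Its log2 fold change was 2.05 (SE 1.45, 95% confidence interval -0.80 to 4.90), its edgeR adjusted p 0.765 and its exact permutation p 0.0317, or 0.127 adjusted over its comparisons. *Esr2* was at least 8.98-fold higher with estradiol, against 0 in all OVX + RAL libraries, but the difference came from library 14 alone, and the edgeR adjusted p was 0.353 with an exact permutation p of 1.0. *Esrrb* gave 0.28 (-1.22 to 1.78) and *Esrra* -0.88 (-4.17 to 2.42), the second -2.05 without library 13 of OVX + E2. The 3 comparisons with OVX + v share those 5 libraries, and this one shares its libraries with 2 of them, so that their values are not independent of each other.

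**Figure D4:**
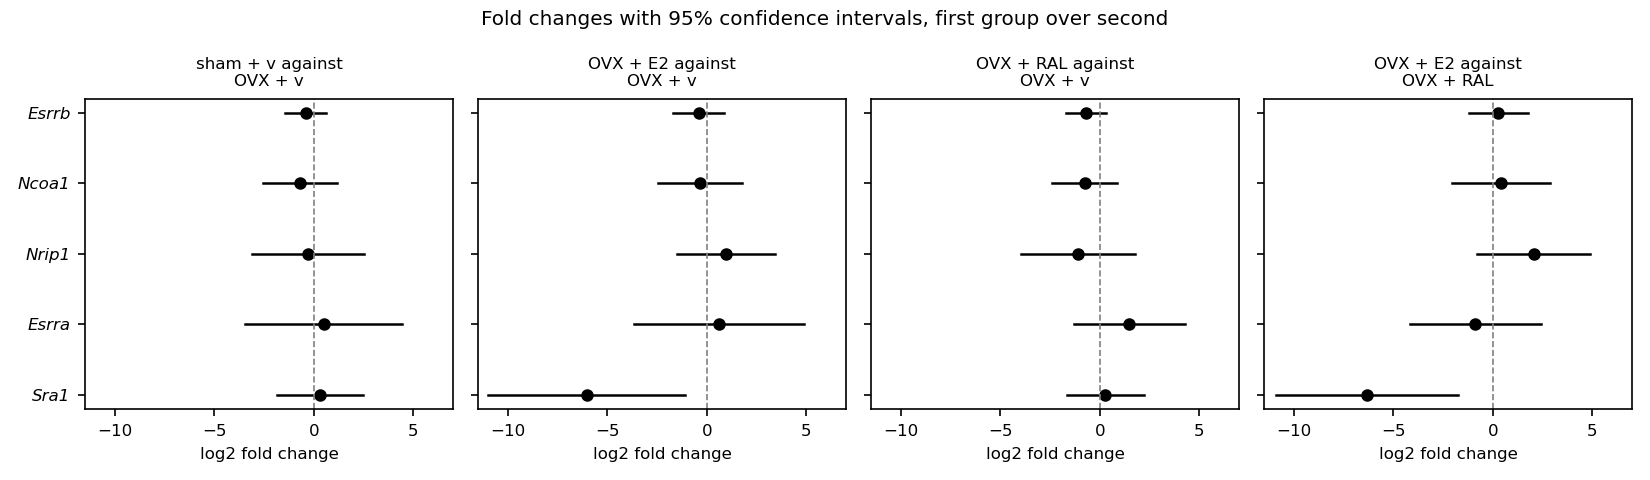
Log2 fold change of the first group over the second, with its 95% confidence interval as a horizontal bar, for the 5 genes detected in at least 13 libraries, in the 4 comparisons. The intervals of *Esrrb*, *Ncoa1*, *Nrip1* and *Esrra* all include 0, and those of *Sra1* lie below 0 in the 2 comparisons of OVX + E2, before adjustment for the number of genes tested.

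Of 120 genes of the estrogen pathway found in the table, the 10 genes included, 104 to 106 could be tested in each comparison and 0 passed in edgeR. With limma 0 passed as well. Of all genes tested 0.0145% to 0.0727% passed in edgeR and 0.0289% to 0.0803% with limma, so that 0 is near these shares. DESeq2 called *Ccnd1* in the first comparison, where it called 0.115% of the genes with an adjusted p, and *Med1* in the third, where it called 0.0318%, which is 12 and 4 genes. Between sham + v and OVX + v 48 were higher and 56 lower, with a median log2 fold change of -0.06 beside -0.02 for all genes. For OVX + E2 against OVX + v the numbers were 57 and 48 with a median of 0.09 beside -0.06, and for OVX + RAL against OVX + v 51 and 55 with -0.03 beside -0.03. For OVX + E2 against OVX + RAL they were 59 and 47 with 0.04 beside -0.01. An unadjusted p under 0.05 was reached by 6.67% to 10.4% of the pathway genes and by 12.1% to 14.1% of all genes.

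Of the receptor chaperones 6 of 8 had a count in every library, of the coactivators 7 of 22 and of the corepressors 8 of 18, and the most abundant of each list are given here. The chaperones *Hsp90ab1* and *Hsp90aa1*, which hold unliganded steroid receptors, averaged 3800 ± 668 and 1510 ± 310 CPM over the 20 libraries. The helicase coactivators *Ddx17* and *Ddx5* averaged 844 ± 183 and 559 ± 162 CPM, and the corepressors *Ncor1* and *Spen*, the second of which binds the RNA of *Sra1*, 224 ± 62.0 and 153 ± 89.4 CPM. All 6 were counted in every library. Of the other steroid receptors, the membrane-associated *Pgrmc2* and *Pgrmc1* averaged 211 ± 74.9 and 176 ± 111 CPM.

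Among the coactivators *Med1*, the mediator subunit that contacts nuclear receptors, averaged 13.9 ± 8.21 CPM in OVX + v, 81.7 ± 35.7 CPM in sham + v, 37.3 ± 31.8 CPM in OVX + E2 and 83.0 ± 39.5 CPM in OVX + RAL. Its log2 fold change over OVX + v was 2.55 (SE 0.962) in sham + v, with an edgeR adjusted p of 0.363. In OVX + RAL it was 2.58 (SE 0.823), with an adjusted p of 0.402 in edgeR and 0.0491 in DESeq2. *Pnrc1*, another coactivator of nuclear receptors, averaged 32 ± 38.3 CPM in OVX + E2 and 130 ± 52.2 CPM in OVX + v, with an edgeR adjusted p of 0.351. Neither passed the edgeR test.

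Of 22 estrogen target genes, *Tff1*, *Myc* and *Areg* were at 0 in all libraries, and *Igfbp4* and *Ckb* were the most abundant with 425 ± 180 and 347 ± 109 CPM. *Ccnd1*, encoding cyclin D1, was at 0 in sham + v and at 26.8 ± 18 CPM in OVX + v, where 4 of 5 libraries detected it, with an adjusted p of 0.363 in edgeR and 0.0493 in DESeq2. It averaged 34.7 ± 33.7 CPM in OVX + E2 and 12.1 ± 20.7 CPM in OVX + RAL. Of the genes of estrogen synthesis and metabolism, *Hsd17b1*, *Cyp1a1*, *Cyp11a1* and *Cyp17a1* were at 0 throughout. *Hsd17b7*, an enzyme of both estradiol and cholesterol synthesis, averaged 220 ± 102 CPM in OVX + E2 and 72.1 ± 47.1 CPM in OVX + RAL, a log2 fold change of 1.61 (SE 0.553) with an edgeR adjusted p of 0.353. Of the mitochondrial genes known as targets of the estrogen-related receptors, *Atp5b* and *Cox5b* were the most abundant with 455 ± 134 and 263 ± 88.7 CPM. Of the 16 or 17 of these genes that could be tested in a comparison 0 passed in edgeR. Of all genes 0.0145% to 0.0727% did, so that 0 is near these shares. The medians of the log2 fold changes of these target genes lay between -0.04 and 0.22.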

How the data were processed

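Total RNA of utricles was made into 3′ libraries (QuantSeq FWD), sequenced, trimmed of adaptors, poly(A) and short reads, and mapped to GRCm39.105 in CLC Genomics Workbench by the authors. The deposited values used here are raw counts of reads per gene, without molecular identifiers. Intervals of pooled count ratios and limits for counts of 0 cover the counting error of reads only. Confidence intervals of fold changes include the spread between libraries. The SE of an edgeR fold change was taken as its size divided by the square root of the test's F value. The confidence intervals use this SE and the t distribution, so they restate the p of the test and are no separate evidence. They are approximate where a group is at or near 0 counts. The strand setting of the counting is not given in the sources used here. The deposited normalized columns and the authors' comparisons (fold changes, p-values) were not used. The labels do not say that libraries came from separate animals, so p-values measure the spread between libraries. No replicate pair had identical counts.

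CPM were computed from column totals. Genes whose counts summed to 10 or more in the compared libraries were tested with edgeR 4.0.16 (quasi-likelihood, total count as library size, Benjamini-Hochberg over all genes, threshold 0.05) in R 4.3.3; limma 3.58.1 and DESeq2 1.42.0 were alternatives. The scripts were tested on simulated data. Single genes were also compared by exact permutation of log2(CPM + 1) over 252 groupings. The genes, lists and tests were chosen with earlier results of these data known. Besides the 10 genes, the rule named, per list, the 2 most abundant genes and in each comparison the smallest p in each direction, of which the text gives some, as well as overlapping genes and the 3 genes most like *Esrrb*.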

Additional observations from a re-analysis of the deposited data

Results flagged for a closer look

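In 14 of the 34 groups of 5 values that could be examined, 1 library stood apart from the other 4 by Dixon's criterion, where chance gives about 1 in 20 groups of continuous values. In 9 of the 14 the other 4 libraries were at 0, so that any count stood apart and that rate does not apply. *Esr1* stood apart at 46.2 CPM in library 2 of sham + v, 16.9 CPM in library 7 of OVX + v, 59.3 CPM in library 13 of OVX + E2 and 3.36 CPM in library 20 of OVX + RAL. *Esr2* did so at 2.1 CPM in library 2 of sham + v, 4.53 CPM in library 8 of OVX + v and 71.2 CPM in library 14 of OVX + E2. *Gper1* did so at 5.93 CPM in library 3 of sham + v, 13.2 CPM in library 10 of OVX + v and 54.3 CPM in library 14 of OVX + E2, the library that also held the high value of *Esr2*. Single high libraries were also found for *Esrra* in sham + v (69.6 CPM, library 5), *Ncoa1* in OVX + RAL (85 CPM, library 19) and *Nrip1* in sham + v (87.1 CPM, library 3). *Sra1* in OVX + E2 had 1.99 CPM in library 11 and 0 in the other 4, a difference of 3 counts.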

How the results depend on the processing

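No value of the 10 genes that an alternative tested passed the threshold, over 18 alternatives for each comparison. In the main analysis 0.0145% to 0.0727% of all genes tested passed it. *Esrrg* could not be tested, the default filter of edgeR left 17 of 35 values, and DESeq2 gave no adjusted p for 6. Of the fold changes, 583 of 608 kept their direction, but their size could move. With limma at pseudocounts of 1 and 0.1, *Nrip1* between sham + v and OVX + v went from -0.29 to -1.93 and -3.25. *Ncoa1* between OVX + E2 and OVX + v went from -0.36 to -1.71 and -2.55, and *Esr2* from 3.85 to 0.74 and 0.79. *Esrra* between OVX + RAL and OVX + v went from 1.48 to 2.57 and 3.95. The number of all genes past the threshold moved as well. In the order sham + v, OVX + E2 and OVX + RAL against OVX + v, then OVX + E2 against OVX + RAL, it was 2, 8, 4 and 10. DESeq2 gave 12, 38 and 42 in the first, second and last. The default filter of edgeR gave 0, 1, 0 and 0, limma with a pseudocount of 0.1 gave 0, 3, 0 and 2, the robust fit 0, 4, 0 and 6, and all 4 groups in 1 fit 1, 2, 1 and 5. In the first, TMM gave 1 and limma with a pseudocount of 1 gave 4. Leaving out each library in turn gave 1 to 10, 6 to 17, 3 to 11 and 8 to 16 genes.

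With limma at pseudocounts of 1 and 0.1 the sign turned for *Esr1* between sham + v and OVX + v (-0.05 and -0.60), and between OVX + E2 and OVX + RAL for *Gper1* (-0.64 and -1.81) and *Ncoa1* (-1.03 and -1.85). At 0.1 it turned for *Esrra* between OVX + E2 and OVX + v (-0.08). Leaving out single libraries turned 13 fold changes; the cause was not tested. For sham + v against OVX + v the ranges were -5.73 to 3.99 (*Esr1*), -5.24 to 4.15 (*Gper1*), -2.38 to 1.27 (*Esrra*), -2.18 to 0.03 (*Nrip1*) and -0.20 to 1.09 (*Sra1*). For OVX + E2 against OVX + v they were -0.06 to 4.64 (*Esr1*), -5.07 to 7.05 (*Gper1*) and -0.57 to 1.38 (*Esrra*). For OVX + RAL against OVX + v they were -5.77 to 0.35 (*Esr1*) and -0.37 to 1.06 (*Sra1*). For OVX + E2 against OVX + RAL they were -6.21 to 1.56 (*Gper1*), -0.45 to 1.03 (*Esrrb*) and -0.77 to 1.13 (*Ncoa1*).

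TMM moved the median log2 fold change of all genes from -0.06 to -0.17 in the second comparison and from -0.01 to -0.16 in the last. Library numbers are not shared between groups, so no paired analysis was possible. Levels under 3 counts, 1.44 to 2.67 CPM, could not be told from 0, and *Esr1*, *Esr2*, *Gper1* and *Pgr* were at 0 in 68.8% of their values. For *Sra1* in OVX + E2, leaving out single libraries gave fold changes of -8.61 to -5.27 against OVX + v and -9.00 to -5.69 against OVX + RAL.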
